A study of Arabidopsis thaliana with 32 samples.

Results

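Roots of Arabidopsis thaliana Columbia-0 that met sorbitol were compared with roots that met ethylene glycol (EG) at the same dose, 15 min after the solute was applied. The comparison holds 12 of the 32 arrays of the series: 6 sorbitol arrays at 50, 100 and 150 mM and 6 EG arrays at 50, 100 and 150 mM. They were chosen from the labels, which name a solute and a dose for each array, and they form 6 pairs that share a dose and a run of title numbers. Each group held 2 arrays, 1 from each run, and no control array enters the difference. All plants were 16 days old, without a transgene or mutation named in the labels, and had been moved from agar plates to hydroponic solution before the treatment. The other arrays were control roots moved to fresh solution, roots in EG at 200 mM, and roots in NaCl or polyethylene glycol (PEG). RNA from whole roots was measured on whole-transcript arrays, and each value is a normalised expression level read as log2.

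Plant cells hold turgor, the pressure of the protoplast against the wall, because the water potential inside and outside differs. A small uncharged solute outside the root lowers the water potential of the solution, and water leaves the cells. Sorbitol, a sugar alcohol, crosses plant membranes slowly, so turgor stays low until the cell adjusts. EG, a small diol, enters readily, so water returns and turgor recovers while the osmotic potential inside and outside stays lowered. Setting the solutes against each other at matched doses bears on how far the early transcript response depends on the drop in turgor. Turgor and solute entry are not among the values used here. Turgor and other differences between the solutes therefore cannot be told apart.

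The sorbitol and EG arrays differed in the spread of all their values. The SD over probe sets on the first run's arrays was 2.131 to 2.139 with sorbitol, against 2.213 to 2.215 with EG. On the second run's arrays it was 2.073 to 2.111 with sorbitol and 2.127 to 2.154 with EG. The sorbitol array was the narrower in 6 of 6 pairs, by a mean of -0.0673 ± 0.0157 (SD, n = 6 pairs), with p = 0.0312 in an exact two-sided sign permutation test, the smallest p that 6 pairs allow. That test takes the pairs as independent, which pairs of the same run may not be, so its p may be too small. With the genes divided by mean level into 5 equal groups, the median difference, sorbitol minus EG, was 0.13 in the dimmest group and -0.06 in the brightest. After quantile normalisation, which gives all arrays the same distribution, these medians were 0.01 and -0.01. The part of this spread in the differences below was not tested, so it is said below which calls and medians changed after quantile normalisation.

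**Figure D1:**
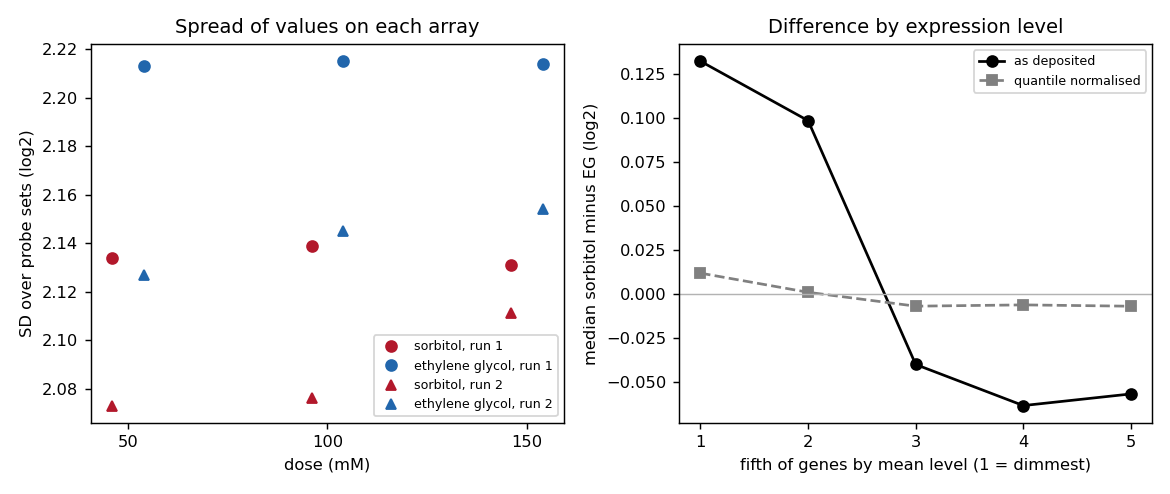
Left, SD of the log2 values over all probe sets on each array against dose in mM, with sorbitol in red and EG in blue, circles for the first run and triangles for the second. Right, median sorbitol minus EG difference (log2) in each of 5 equal groups of genes by mean level, as deposited (black) and after quantile normalisation (grey). Every sorbitol array lies under the EG array of its dose and run, and the black line stands at 0.13 in the dimmest group and below 0 in the 3 brightest.

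Few genes told the solutes apart, with estimates under 2-fold. Averaged over the 3 doses, 40 genes were higher and 49 lower in sorbitol than in EG among 28283 genes tested, which is 0.315% of them (limma, adjusted p under 0.05), or 0.141% higher and 0.173% lower. The median difference was 0.56 for the higher genes, with a range of 0.30 to 0.96, and -0.44 for the lower genes, whose sizes ran from 0.24 to 0.95. The direction was the same in all 6 pairs for 38 of the 40 and 43 of the 49, against 9.87% of all genes. The genes were called on the mean of these same pairs, which favours a shared direction, so these counts are a description. In the fit without the run as a replicate block, 1 gene passed, AT3G11385, with 1796 genes at an unadjusted p under 0.05 against 4484 with the block. Within the first run alone 33 genes were higher and 8 lower, and within the second run alone 2 and 2, with 4 and 3 of these among the 89. With each dose-and-run pair as the block, on the 12 compared arrays, 28 were higher and 40 lower, of which 17 and 28 were among the 89. Quantile normalisation left 27 genes higher and 23 lower, 20 and 22 of them among those above, and centring each array on its median left 57 higher and 27 lower. The share of calls that were higher was thus 44.9% as deposited, 54.0% after quantile normalisation and 67.9% after centring. The called genes that were higher included 9 from the dimmest of the 5 level groups and 13 from the next, and the lower ones included 0 and 3 from them.

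Most of these calls were lost when some single array was left out. Leaving out EG 150 mM of the first run left 14 genes, leaving out sorbitol 150 mM of the first run left 20, and leaving out sorbitol 150 mM of the second run left 134. The other 9 arrays left out in turn gave 21 to 50. The calls that held whichever array was left out were 3 of the 40 higher genes and 8 of the 49 lower genes, and all 11 also held after quantile normalisation. With each dose-and-run pair as the block, 10 of the 11 held, and probe set 13430665 had an adjusted p of 0.0519. These 11 are described first, and 6 of them have a name or locus. Whole roots were measured, so fewer cells of a type and less RNA per cell cannot be told apart in any of them.

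LEP, the AP2/ERF-family transcription factor LEAFY PETIOLE, was the named gene higher in sorbitol whose call held with any array left out. Its log2 level at 50, 100 and 150 mM was 7.04, 6.84 and 6.70 in sorbitol against 6.21, 5.84 and 6.26 in EG on the first run. The second run gave 5.78, 6.59 and 6.47 in sorbitol and 5.71, 5.69 and 5.75 in EG. Within each run every sorbitol array lay above every EG array, while at 50 mM of the second run the gap was 0.07. LEP was 1.58-fold higher in sorbitol on average, a difference of 0.66 ± 0.11 (SE) with an adjusted p of 0.00574 in limma. The control array of the first run, at 6.01, lay within the EG levels of its run. That of the second run, at 6.06, lay above all EG levels of its run and above sorbitol at 50 mM.

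The other 2 were probe sets that name no gene. Probe set 13351770 had the largest passing difference, 0.96 ± 0.13 (SE, adjusted p 0.00039 in limma), or 1.94-fold. Its level at 50, 100 and 150 mM was 3.37, 3.57 and 3.37 in sorbitol against 2.82, 2.38 and 2.28 in EG on the first run, and 3.94, 3.85 and 4.14 in sorbitol against 3.09, 2.85 and 3.07 in EG on the second. Sorbitol and EG arrays did not overlap, with the lowest sorbitol array at 3.37 and the highest EG array at 3.09. Probe set 13486087 was 0.63 ± 0.10 (SE) higher in sorbitol (adjusted p 0.00574 in limma), with its widest gap at 150 mM, where it stood at 7.2 and 7.65 in sorbitol and 5.96 and 6.75 in EG.

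AT3G11385 was the gene lowest in sorbitol relative to EG, and the call held without the block too. On the first run its level at 50, 100 and 150 mM was 4.40, 4.24 and 4.66 in sorbitol against 5.21, 5.28 and 5.44 in EG. On the second run it was 4.19, 4.70 and 4.42 in sorbitol and 5.46, 5.63 and 5.27 in EG. All 6 sorbitol arrays lay below all 6 EG arrays, at every dose alike. The difference was -0.95 ± 0.11 (SE), 1.93-fold, with an adjusted p of 0.000178 in limma and 0.0391 without the block. The control arrays, at 5.07 and 5.04, lay between the groups and nearer to EG.

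AT1G76240 and AT5G19190 were lower in sorbitol in every pair, and both stood lower on the second run than on the first. AT1G76240 stood at 6.29, 6.12 and 6.16 in sorbitol against 6.97, 7.26 and 7.13 in EG on the first run, and at 6.00, 5.42 and 5.17 in sorbitol against 6.30, 6.36 and 5.87 in EG on the second. On the second run the EG array at 5.87 lay below the sorbitol array at 6.00, and the control arrays, at 7.38 and 6.94, lay above every array of their run in either solute. The difference was -0.79 ± 0.11 (SE; adjusted p 0.000714 in limma). AT5G19190 stood at 4.65, 4.51 and 4.08 in sorbitol against 5.01, 5.16 and 5.05 in EG on the first run, and at 3.67, 3.40 and 3.75 in sorbitol against 4.53, 4.52 and 4.46 in EG on the second. Within each run the groups did not overlap, and the control arrays, at 5.01 and 4.52, stood at the EG level. Its difference was -0.78 ± 0.105 (SE; adjusted p 0.000492 in limma).

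**Figure D2:**
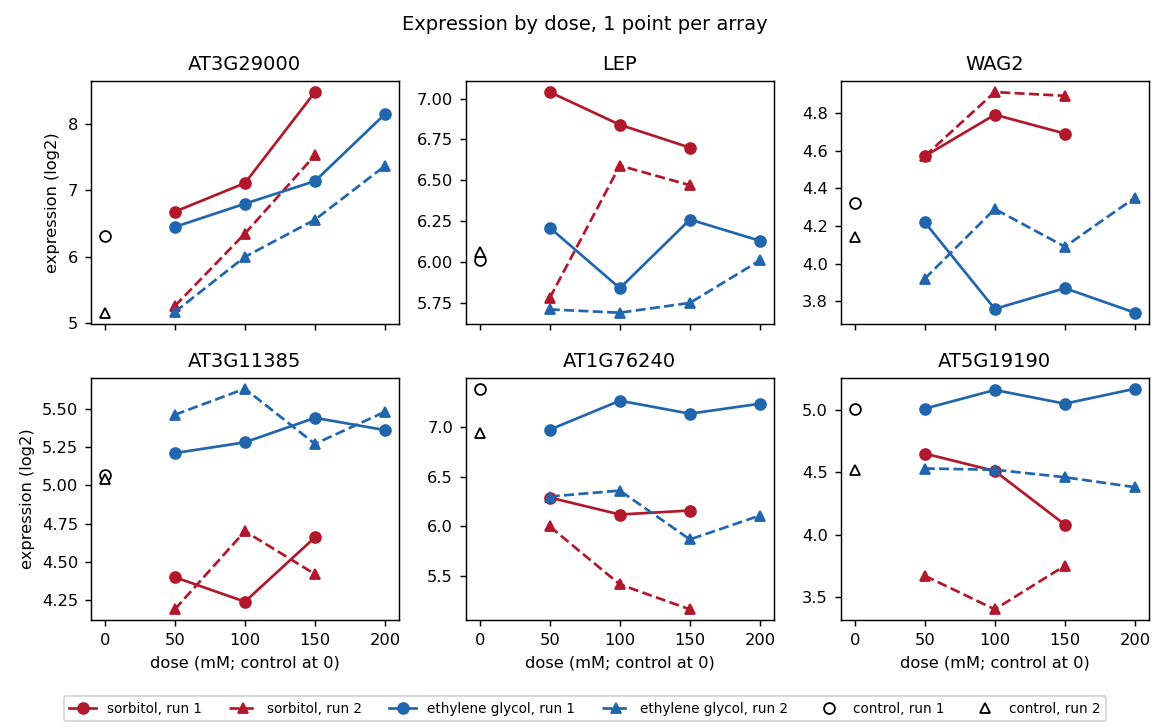
Log2 expression of AT3G29000, LEP, WAG2, AT3G11385, AT1G76240 and AT5G19190 against dose in mM, 1 point per array, with sorbitol in red, EG in blue (200 mM included), control as open symbols at 0, circles and full lines for the first run and triangles and broken lines for the second. AT3G11385 shows all sorbitol arrays, at most 4.70, under all EG arrays, at least 5.21, and AT3G29000 parts most at 150 mM.

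BZIP61, a basic leucine zipper transcription factor, was among the lower genes whose call held with any array left out. It missed the threshold without the replicate block (adjusted p 0.792 in limma). It was singled out, as were the other genes that are said to be outside the naming rule, after its values were seen. Its levels on the first run were 7.85, 7.71 and 7.67 in sorbitol against 8.19, 8.26 and 8.21 in EG, and on the second run 7.38, 7.48 and 7.25 in sorbitol against 7.85, 7.67 and 7.62 in EG. Within each run all sorbitol arrays lay below all EG arrays, by a small amount: the difference was -0.41 ± 0.06 (SE; adjusted p 0.00298 in limma), or 1.33-fold. AT2G46780 was also lower, by -0.45 ± 0.07 (SE; adjusted p 0.00444 in limma), at 6.87 to 7.86 in sorbitol and 7.42 to 8.09 in EG, and it too was lower in 6 of 6 pairs.

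The remaining lower genes of the 11 were 3 probe sets that name no gene. Probe set 13460095, at 8.04 to 8.53 in sorbitol and 8.52 to 8.95 in EG, differed by -0.44 ± 0.06 (SE; adjusted p 0.00039 in limma). Probe sets 13383152 and 13430665 differed by -0.59 and -0.56, each lower in 6 of 6 pairs. These 3 and probe set 13486087 were described because their calls held, after their values were seen. The naming rule also took probe set 13376180, higher by 0.78, and probe sets 13526469 and 13510415, lower by -0.68 and -0.645, which passed and lost their calls in 5, 7 and 11 of the 12 fits that left out 1 array. Probe set 13510415 missed the threshold after quantile normalisation (adjusted p 0.0672), and 13526469 with the pair as the block (0.0761).

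WAG2, an AGC-family protein kinase that acts on the polar placement of auxin transporters, was higher in sorbitol. Its levels were 4.57, 4.79 and 4.69 in sorbitol against 4.22, 3.76 and 3.87 in EG on the first run, and 4.57, 4.91 and 4.89 in sorbitol against 3.92, 4.29 and 4.09 in EG on the second. The groups did not overlap, with all sorbitol arrays at 4.57 or above and all EG arrays at 4.29 or below. The difference was 0.71 ± 0.13 (SE; adjusted p 0.0151 in limma), or 1.64-fold, and the control arrays stood at 4.32 and 4.14. The call was lost without EG 100 mM or EG 150 mM of the first run, or without sorbitol 100 mM or EG 50 mM of the second, with adjusted p of 0.0514 to 0.0769, and it held after quantile normalisation (0.00611).

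Other named genes that passed were less steady. STN1, a protein that caps chromosome ends, was 0.39 ± 0.07 (SE) higher in sorbitol, at 5.94 to 6.52 against 5.47 to 5.94 in EG (adjusted p 0.00943), and its call was lost without EG 150 mM of the first run (0.0517) or EG 50 mM of the second (0.0594) and with the pair as the block (0.0519). DLAH, a lipase of the DAD1-like acylhydrolase family, was 0.42 ± 0.08 (SE) higher, mostly at 150 mM, where it stood at 8.35 and 8.43 in sorbitol and 7.54 and 7.73 in EG, and lost its call in 7 of 12 such fits. BIM1, a basic helix-loop-helix partner of brassinosteroid signalling factors, was -0.31 ± 0.06 (SE) lower, at 8.16 to 8.38 in sorbitol against 8.50 to 8.65 in EG without overlap, and lost its call without sorbitol 150 mM (0.054) or EG 150 mM (0.0699) of the first run. LpxC2, an enzyme of a lipid A-like pathway, and TET16, a tetraspanin, passed at -0.38 and 0.48, and lost their calls in 7 and 11 of 12 fits. TET16 also missed the threshold after quantile normalisation (0.186) and with the pair as the block (0.104), and LpxC2 after centring (0.0528). STN1, DLAH, BIM1 and LpxC2 held after quantile normalisation, with adjusted p of 0.00128, 0.00585, 0.048 and 0.0218. These 5 genes also lie outside the naming rule.

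The rest of the named genes have a locus and no symbol in the annotation. Higher in sorbitol were AT3G29000, AT1G51920, AT5G67265, AT1G53970, AT2G03565, AT4G28870, AT5G24155, AT3G19274, AT4G05350 and AT1G19470, with differences from 0.54 for AT1G19470 to 0.845 for AT4G28870. AT2G03565, AT4G28870, AT5G24155, AT3G19274, AT4G05350 and AT1G19470 belong to the 2 dimmest level groups and missed the threshold after quantile normalisation, with adjusted p of 0.0508 to 0.18 (limma). AT1G51920 differed strongly between runs, at 6.85 to 7.59 in sorbitol and 6.33 to 6.57 in EG on the first run and 4.28 to 4.80 in sorbitol and 3.53 to 4.06 in EG on the second, yet parted the solutes without overlap within each run. Lower in sorbitol were AT5G23360, AT3G06070, AT1G26730, AT1G53660, AT2G17300, AT4G08868, AT1G23030 and AT2G39870, with differences from -0.80 for AT5G23360 to -0.43 for AT2G39870. AT3G06070, at 3.38 to 4.10 in sorbitol and 4.28 to 4.83 in EG, did not overlap between the solutes and lost its call without EG 150 mM of the first run, or EG 50 mM or EG 100 mM of the second (adjusted p 0.0593 to 0.0638). AT2G03565, at 2.66 to 2.89 in sorbitol and 1.77 to 2.45 in EG, did not overlap either. AT1G53660, AT1G23030 and AT2G39870 missed the threshold after quantile normalisation, with adjusted p of 0.0524, 0.0924 and 0.0519. With the pair as the block, AT5G24155, AT3G19274, AT4G05350, AT1G19470, AT1G53660, AT1G23030 and AT2G39870 missed it, with adjusted p of 0.0519 to 0.0867. Each gene of this paragraph lost its call in some of the 12 fits that left out 1 array. The fewest were 3, for AT3G29000 and AT3G06070, and the most 11, for AT3G19274, AT1G19470 and AT1G23030. The call was lost in 5 for AT2G03565, in 7 for AT1G51920, and in 10 for AT5G67265, AT1G53970, AT5G24155 and AT4G08868.

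**Figure D3:**
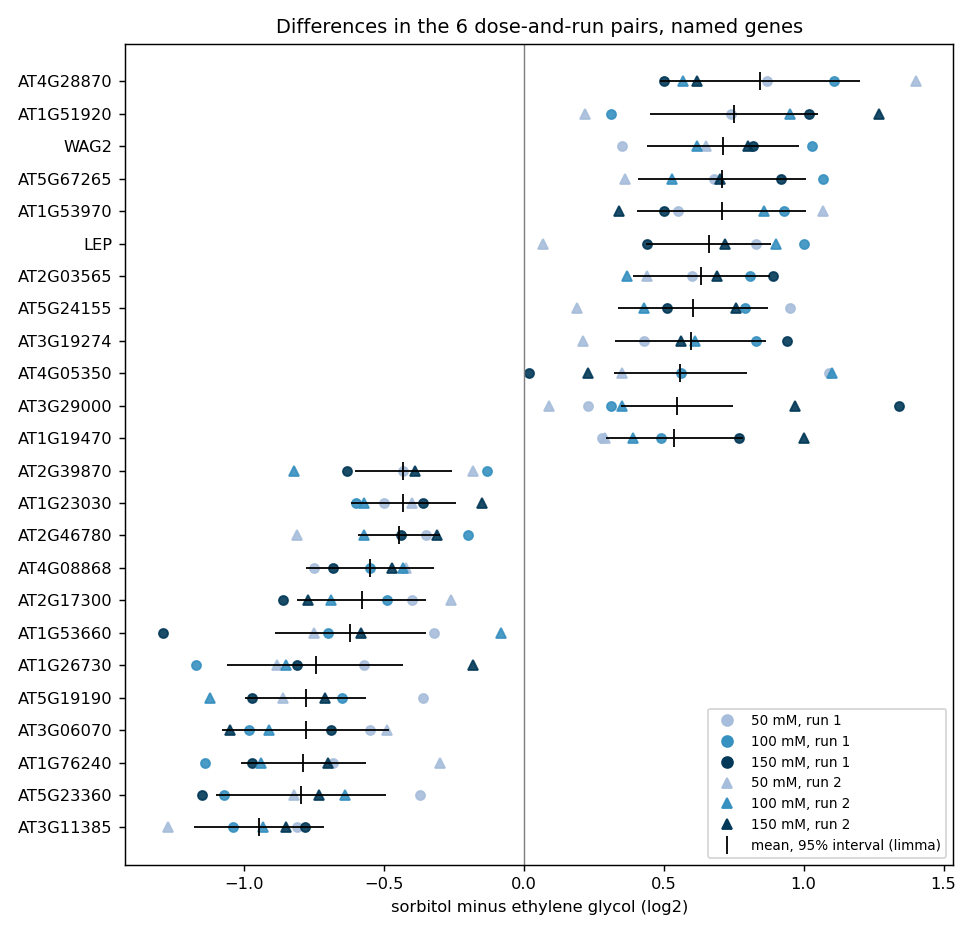
Sorbitol minus EG difference (log2) of each of the 24 genes named for the average, 1 point per dose-and-run pair, with circles for the first run, triangles for the second and darker blue for higher dose, and the mean with its 95% interval from limma as a black line. All points of a gene lie on 1 side of 0, as the naming rule requires, the nearest being AT4G05350 at 0.02.

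Few genes passed at single doses, each a comparison of 2 arrays with 2 and so less precise than the average. AT3G11385 passed at none of them, with differences of -1.04, -0.985 and -0.815 at 50, 100 and 150 mM. Its SE was 0.195 at 150 mM against 0.113 for the average. At 50 mM and at 100 mM 0 genes passed in limma (0.0% of genes tested), where 1669 and 2199 genes had an unadjusted p below 0.05, and 0 passed at either dose without the block. At 150 mM 6 genes passed, 0.0212%, of which 4 (0.0141%) were higher and 2 (0.00707%) lower in sorbitol, and 0 of these passed without the block. AT3G29000 had the smallest adjusted p of them. At 50, 100 and 150 mM it stood at 6.68, 7.11 and 8.48 in sorbitol against 6.45, 6.80 and 7.14 in EG on the first run, and at 5.26, 6.35 and 7.53 in sorbitol against 5.17, 6.00 and 6.56 in EG on the second. Its level climbed with dose in both solutes and both runs, with the pairs 0.09 to 0.35 apart at the lower doses and 0.97 and 1.34 apart at 150 mM. EG at 200 mM, at 8.15 and 7.37, came near sorbitol at 150 mM. The difference at 150 mM was 1.16 ± 0.17 (SE; adjusted p 0.00753 in limma), and the call was lost without either 150 mM array of the first run, with adjusted p of 0.172 without sorbitol and 0.586 without EG. Averaged over the doses it was 0.55 ± 0.10 (SE) higher in sorbitol (adjusted p 0.012 in limma), a call lost without either of those arrays (0.0511 and 0.0699) or without EG 50 mM of the second run (0.063).

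The other 5 genes at 150 mM were probe sets that name no gene, so they were singled out after their values were seen. Of these, 13355474, 13486087 and 13511596 were higher in sorbitol by 1.1, 1.07 and 1.08, and 13460095 and 13484230 were lower by -0.565 and -1.1. They lost their calls in 6 to 10 of the 12 fits that left out 1 array, and 13355474, 13460095 and 13484230 missed the threshold after quantile normalisation, with adjusted p of 0.0571 to 0.0587.

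No gene passed the test of whether the difference itself changed with dose (0.0%; limma), where 943 genes had an unadjusted p below 0.05, and 0 passed without the block, where 322 had one. The smallest p-values belonged to AT5G17000, AT3G04440 and AT3G29000, each with an adjusted p of 0.999. AT3G29000 had a slope of 2.03 log2 units per 100 mM in sorbitol and 1.04 in EG. Among the 40 genes higher in sorbitol the median difference was 0.48, 0.58 and 0.58 at 50, 100 and 150 mM, and 27 had a positive difference of slopes, against 48.9% of all genes. Among the 49 lower genes the medians were -0.37, -0.415 and -0.495, and 33 had a negative one, against 14411 of all 28283 genes. An unadjusted p below 0.05 for the slopes (limma) belonged to 5 of the 40 and 2 of the 49.

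The 6 pairs gave related but noisy profiles. Over all genes, which are not independent replicates, the correlation of the differences between pairs had a median of 0.155 and ran from 0.0953 to 0.266 over the 15 combinations. Pairs of the same run correlated at 0.134 to 0.266 and pairs of different runs at 0.0953 to 0.18, and no array was shared between pairs. The SD of the differences over genes was 0.29 to 0.336. These correlations are of the values as deposited and were not taken after quantile normalisation. The part in them of the narrower spread of the sorbitol arrays was not tested.

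The control arrays place the 2 solutes on a common scale. They had no part in the differences, but with all 32 arrays they entered the estimate of the spread behind the calls. For 34 of the 40 genes higher in sorbitol, 85.0%, the control mean lay nearer the EG mean than the sorbitol mean, and so it did for 43 of the 49 lower genes, 87.8%. Among all genes with a difference of the same sign these shares were 61.1% and 57.9%. The genes were chosen by their sorbitol and EG difference against that spread and a chosen gene has a wide gap, so the shares are a description. After quantile normalisation they were 34 and 41 of the same genes, 85.0% and 83.7%, against 56.3% and 56.0% of all genes. For the other solutes the shares also moved with quantile normalisation, and both are given. EG at 200 mM lay nearer the lower EG doses than sorbitol for 29 of the 40 and 43 of the 49, beside 61.8% and 57.4% of all genes, and for 26 and 43 after quantile normalisation, beside 57.3% and 57.3%. PEG, a large polymer that stays outside cells, lay nearer sorbitol for 29 of the 40 and 28 of the 49, beside 58.6% and 60.3% of all genes, and for 29 and 26 after quantile normalisation, beside 50.0% and 51.0%. NaCl, which adds ions, lay nearer sorbitol for 21 of the 40 and 38 of the 49, beside 57.8% and 59.0% of all genes, and for 21 and 37 after quantile normalisation, beside 52.1% and 56.5%. The PEG and NaCl means are over their own doses, which differ from those of sorbitol and EG.

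**Figure D4:**
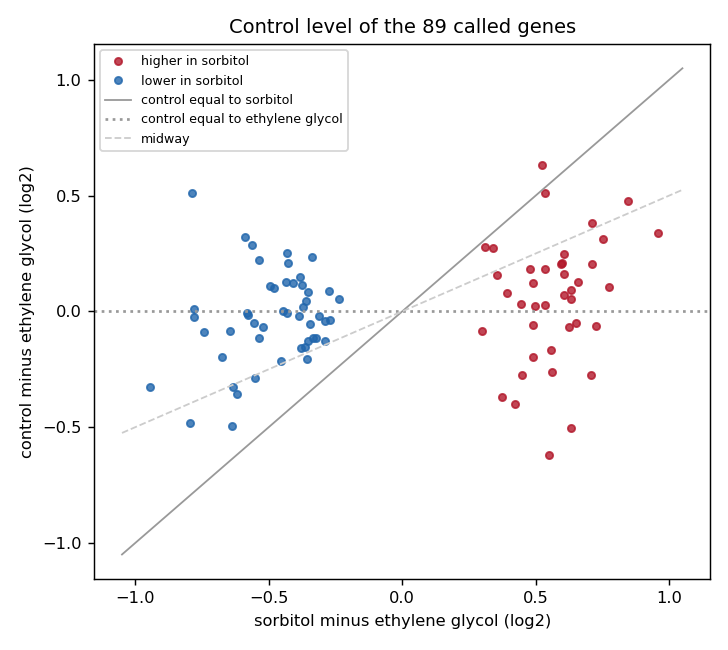
Control minus EG mean (log2) against sorbitol minus EG mean (log2) for each of the 89 called genes, red for those higher and blue for those lower in sorbitol. Points near the dotted line have a control level equal to EG, points near the full line a control level equal to sorbitol, and the broken line marks midway: 34 of the 40 red points and 43 of the 49 blue points lie on the EG side of it.

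Lists of genes that answer osmotic and mechanical stress had 0 measured members that passed in limma, in either direction. LEP and AT3G29000, which passed, are in none of the lists. Over all genes tested 0.315% passed, the median difference was 0.0017, and 15.9% had an unadjusted p below 0.05. With so small a share passing, 0 in lists of this size, here and below, says little about their members. Of the calcium and touch genes 4 of 17 listed were measured by name, with a median of -0.03 and 0 at an unadjusted p below 0.05, and among them the calmodulin-like protein CML37 stood at 3.46 to 4.52 in sorbitol and 3.34 to 4.21 in EG. Of the early zinc finger, WRKY and ERF factors 6 of 28 were measured, zinc finger and WRKY genes and no ERF, with a median of 0.05 and 1 at that level, STZ, a zinc finger repressor, which differed by 0.19 (95% interval 0.04 to 0.34, adjusted p 0.206). Of the dehydration and abscisic acid genes 5 of 29 were measured, with a median of 0.095 and 0 at that level, and their cold- and drought-responsive members COR15A and KIN2 differed by 0.19 and 0.21, each with an interval that spans 0. Most listed genes have no name on this array annotation, so the counts say little about these pathways as a whole.

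Among sensors of turgor and wall tension 4 of 16 were measured, with a median of -0.14, or -0.083 after quantile normalisation, and 2 had an unadjusted p below 0.05. THESEUS1 (THE1) and FERONIA (FER) are receptor kinases that monitor the cell wall. THE1 stood at 6.13 to 6.40 in sorbitol, median 6.245, and 6.02 to 6.78 in EG, median 6.59, with control at 6.96 and 6.77. FER stood at 7.40 to 7.76 in sorbitol and 7.53 to 7.91 in EG. The sorbitol and EG arrays overlapped for both. The differences of -0.26 and -0.205 are those 2 and did not pass, with adjusted p of 0.173 and 0.191.

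Wall-loosening and the other families of this paragraph were gathered by a search of the names, so their counts are of named members only. The share of each family that was measured is not known. Of 10 xyloglucan-modifying enzymes, 0 passed and 2 had an unadjusted p under 0.05: XTH21 at 4.66 to 5.63 in sorbitol and 4.86 to 5.96 in EG (-0.39, adjusted p 0.0624), and EXGT-A3 at 5.25 to 5.88 in sorbitol and 5.68 to 6.10 in EG (-0.38, adjusted p 0.0816). Of 23 expansins, which loosen walls during growth, 0 passed and 6 had an unadjusted p under 0.05, with a median difference of 0.09, or 0.086 after quantile normalisation. EXPA25 differed by 0.50, EXPB5 by 0.41 and EXPA18 by 0.22. Of 17 IQ-domain proteins, scaffolds that bind calmodulin, 0 passed, 4 had an unadjusted p below 0.05 and the median was -0.038. Of these 4, IQD29 and IQD19 differed by -0.28 and -0.30 (adjusted p 0.0943 and 0.115), and iqd21 and IQD25 by 0.305 and 0.25 (0.166 and 0.31). Among 7 WRKY factors, 0 of which passed and 3 of which had an unadjusted p below 0.05, the median was 0.073, or 0.11 after quantile normalisation. WRKY41 had the largest difference, 0.46 (adjusted p 0.151), at 4.32 to 6.45 in sorbitol and 3.77 to 5.80 in EG. Among 69 glutathione transferases and glycosyltransferases, which are conjugating enzymes, the median was 0.037, or -0.0034 after quantile normalisation, 0 passed and 7 had an unadjusted p below 0.05. The 7 calmodulin-like proteins and 3 heat shock proteins had medians of -0.025 and -0.005, or 0.017 and -0.11 after quantile normalisation, and 0 of either passed.

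Enzymes and transporters that could act on the solutes themselves did not pass either, and 0 of those measured had an unadjusted p below 0.05. Of 12 alcohol, aldehyde and glycolate oxidation genes 4 were measured, with a median of 0.00083. ALDH2C4, an aldehyde dehydrogenase, stood at 9.44 to 9.86 in sorbitol and 9.46 to 9.78 in EG, a difference of 0.0 with a 95% interval of -0.12 to 0.12. HAOX1 and HAOX2, enzymes that oxidise hydroxy acids, differed by 0.0017 and -0.19. Of 10 polyol and inositol genes 2 were measured, with a median of 0.06, and of 9 low-oxygen genes 1 was measured, at -0.045. Of 12 ion transport genes 0 were measured by name.

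The tissue label could be checked through few markers. Of 12 root markers the expansin EXPA7 of root hair cells was named, at 6.98 to 7.94 in sorbitol, 6.65 to 7.72 in EG and 6.95 and 8.02 in control. Of 10 shoot markers Rubisco activase (RCA) was named, at 3.27 to 3.73 in sorbitol, 2.91 to 3.60 in EG and 3.45 and 3.73 in control. They differed by 0.32 and 0.245 between the solutes without passing, with adjusted p of 0.196 and 0.302, and their part in the differences was not tested.

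The intervals give the size of difference that these arrays leave room for. The 95% interval of the average difference lay within 2-fold in either direction for 28198 genes, 99.7%, and within 1.5-fold for 26047 genes, 92.1%, with a median width on each side of 0.23. It reached beyond 2-fold for 85 genes, 11 of them called. The estimate itself was over 2-fold for 2 genes, named after their values were seen, and neither passed. AT3G12900 stood at 5.07 to 8.95 in sorbitol and 2.39 to 7.63 in EG, a difference of 1.56 with an interval of 0.13 to 3.0 (adjusted p 0.275 in limma). Probe set 13334405 differed by 1.12, with an interval of -0.235 to 2.47 (adjusted p 0.405 in limma). AT5G40000, which was added after its values were seen, gives an example: it stood at 3.27 to 4.91 in sorbitol and 3.73 to 5.02 in EG, and its difference of -0.20 had an interval of -0.46 to 0.06 (adjusted p 0.429 in limma). These intervals rest on the spread between arrays, and since no label states whether both arrays of a group are from different plants or cultures, they and the p-values measure a spread that may be technical.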

How the data were processed

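The deposited log2 expression values came from GCRMA and the Affymetrix Expression Console and Transcriptome Analysis Console programs, versions not given, per the submitters' processing notes. The log base was read from the range of values, and any scaling between arrays is not given in the sources used here. All array columns matched a sample, and 0 were set aside. Of 28477 probe sets, 16746 listed 1 gene, 758 several and 10973 none, and 16601 matched RefSeq TAIR10.1, which was used for names only. Keeping the brightest probe set of a gene left 28283 genes. Differences were fitted with limma 3.58.1 (R 4.3.3) to all 32 arrays, with 16 group means, the run as a block (15 residual degrees of freedom) and variances moderated along their trend with level. Calls are at 0.05 after Benjamini-Hochberg adjustment. The average, each dose, and the difference of slopes were tested, and the average equals the mean of the 6 pair differences. The run is read from the title numbers, not from a statement in the labels. In all 15 pairs of the 6 groups, arrays of a run deviated together from their group means, at correlations of 0.643 to 0.757. The number of arrays limits the precision. The fit was tested on simulated data, into which no difference in array spread between the solutes was put, so that test does not cover such a difference.

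The comparison, its members and the gene lists were chosen with earlier results of these data known. Named genes are the 12 largest passing differences in each direction with the same sign in all 6 pairs, up to 5 in each direction per dose, the 3 smallest p-values for the slopes, the 4 smallest p-values of each list and the 2 largest passing probe sets without a name in each direction. Genes outside it are said to be so. Lists of aquaporins, pectin methylesterase inhibitors, VQ-motif proteins and jasmonate repressors held 0 genes by name. Alternatives were the block, the arrays in the fit, each run alone, quantile normalisation, centring, a filter on dim genes, the variance trend, all probe sets, and each of the 12 arrays left out.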

Additional observations from a re-analysis of the deposited data

How the results depend on the processing

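The count of 89 genes for the average moved with most of the settings tried. Without the replicate block 1 gene passed, and with the 12 compared arrays alone 178 did. Within the first run 41 passed and within the second 4, each a fit on 6 arrays, with 4 and 3 genes among the 89. Quantile normalisation gave 50 and no variance trend 45. The pair as replicate block gave 68, with 17 of the 40 higher and 28 of the 49 lower genes among them. Centring gave 84, leaving out the dimmest 30% of genes 83 and keeping all probe sets 89. Leaving out 1 array gave 14 to 134 for the average, 0 to 3 at 100 mM, 0 to 6 at 150 mM, and 0 at 50 mM and for the slopes. At 100 mM leaving out the dim genes gave 1 in place of 0. At 150 mM the count of 6 became 0 without the replicate block, 14 with the compared arrays alone and 1 without the trend. No called difference changed sign when an array was left out, which is a description, since the genes were called on these same arrays. The medians of the calcium and touch, xyloglucan, calmodulin-like, IQ-domain and heat shock lists turned above 0 under centring, and that of the calmodulin-like list also under quantile normalisation, and those of the oxidation and conjugating enzyme lists turned below 0 there. The control position under quantile normalisation was chosen after seeing the data. The cause of these moves was not tested, except that fewer arrays enter some fits. Signal over background is not given in the deposited values, so dim genes could not be set apart from background.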
